A study of Mus musculus with 31 samples.

Results

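Of the 20544 genes counted in 31 single 2-cell mouse embryos, 10 genes of the outer kinetochore are described here in every embryo. They are those of the Ska complex (Ska1, Ska2 and Ska3), of the Ndc80 complex (Ndc80, Nuf2, Spc24 and Spc25), and Knl1, Bub1 and Bub1b. They were taken from the table by name, and the set was chosen by function around Ska3 with the log2 fold changes of SER over control in these same embryos already known. Their values in that comparison are therefore a description and carry no test of their own. All 10 genes were found under these symbols, and all 10 passed the filter on low counts.

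Sperm came from wild-type C57BL/6J males of 12 to 14 weeks, and oocytes from superovulated CD1 females of 8 to 10 weeks. One cauda epididymis of a male went into complete medium (control), and the other into medium that lacked glucose and pyruvate (sperm energy restriction and recovery, SER). Sperm were held for 15 to 45 min, until those in the depleted medium had stopped moving, and both kinds then received complete medium. After in vitro fertilization with 4 h of coculture, embryos were grown in KSOM and collected one by one 32 h post-insemination, 16 control- and 15 SER-generated. The treatment was therefore given to the sperm alone, and every embryo carried an untreated CD1 maternal genome and cytoplasm. The libraries follow Smart-seq3, in which 5′ end reads carry a molecular identifier and internal reads do not, and each holds the RNA of 1 whole embryo, so that fewer transcripts per blastomere and fewer transcribing blastomeres cannot be told apart.

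The kinetochore is the protein assembly that joins a chromosome's centromere to spindle microtubules. Its outer layer is built from Knl1, the Mis12 complex and the Ndc80 complex. In the Ndc80 complex, Ndc80 and Nuf2 form the arm whose head binds the microtubule, and Spc24 and Spc25 form the end that is anchored to the inner kinetochore. The Ska complex is recruited by the Ndc80 complex and helps to hold the attachment while the microtubule shortens. Knl1 is the scaffold on which the kinase Bub1 and BubR1, the product of Bub1b, are loaded, and both take part in the spindle assembly checkpoint, which delays anaphase until chromosomes are attached. A 2-cell embryo holds transcripts of these genes left from the oocyte, where the same proteins serve the meiotic divisions, and may add others from its own genome once zygotic transcription begins.

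Promoter sequence was available from RefSeq (GRCm38.p6, the build called mm10) for 8 of the 10 genes, Ska1 and Spc24 being without an entry. The last 100 bases of each entry, from 50 before to 50 after the annotated start, are shown for the genes whose levels are compared most below: Ska2, Ska3 and Spc25, which varied together between embryos, Nuf2, which did not vary with them, and Ndc80, the partner of Nuf2. The coordinates are on the reference strand and the bases run 5′ to 3′ on the strand of the gene. Capitals mark TTTGAA, its reverse complement TTCAAA, or TTCGAA. These letters are the core of the cell cycle genes homology region, an element known from promoters of genes that are transcribed late in the cell cycle.
Ska2, chr11:87109211-87109310, plus strand: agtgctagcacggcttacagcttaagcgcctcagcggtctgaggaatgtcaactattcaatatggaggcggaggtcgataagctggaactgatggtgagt
Ska3, chr14:57826114-57826213, minus strand: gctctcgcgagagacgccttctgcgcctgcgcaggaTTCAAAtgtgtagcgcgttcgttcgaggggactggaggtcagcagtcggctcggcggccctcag
Spc25, chr2:69206164-69206263, minus strand: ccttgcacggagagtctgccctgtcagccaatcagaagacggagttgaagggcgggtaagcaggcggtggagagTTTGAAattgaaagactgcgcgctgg
Nuf2, chr1:169531415-169531514, minus strand: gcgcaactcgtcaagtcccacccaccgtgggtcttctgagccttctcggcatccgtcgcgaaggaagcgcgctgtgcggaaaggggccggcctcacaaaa
Ndc80, chr17:71526808-71526907, minus strand: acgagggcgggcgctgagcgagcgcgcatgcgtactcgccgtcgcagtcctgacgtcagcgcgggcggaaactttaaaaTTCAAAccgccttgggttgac
In the whole 300-base entries, TTTGAA on either strand was found in 5 of the 8 promoters, those of Ska3, Ndc80, Spc25, Bub1b and Knl1. TTCGAA, which reads the same on both strands, was found in those of Bub1 and Bub1b. One or the other was thus present in 6 of 8, and in 19.2% of all 32851 RefSeq promoters of that length. In the last 75 bases alone, a window set after the matches had been seen, one or the other was again in 6 of 8, against 3.86% of all promoters. CCAAT on either strand was found in 4 of 8, those of Ska2, Spc25, Bub1 and Bub1b, and in 37.4% of all. The Ska2 entry held CCAAT at 5 places, all upstream of the bases shown, and the Nuf2 entry held none of the 3 motifs. A match is a match of letters and was not tested for binding or for use.

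An embryo's library held between 532945 and 2085222 counts in the control group (median 955806) and between 642321 and 3088396 in the SER group (median 1375557), and the geometric mean was 1.50 times higher in the SER group (2-sided permutation test with 100000 resamples, p = 0.0197). Levels are given as CPM, each count scaled to the total of its own embryo. Control replicate 4 and SER replicate 15 stood apart from all other embryos, with a summed level of 25 genes of 2-cell zygotic activation, such as Obox6, Usp17lb, Dppa4 and Zfp352, of 132.8 and 222 CPM. The other 29 embryos had 1050 to 5330 CPM, and values without these 2 embryos are given where they matter. All 18 oocyte genes were detected in both groups (summed level 2998 to 17159 CPM in control and 1455 to 13611 CPM in SER embryos). Of 13 genes of cumulus cells, which surround the oocyte, 7 reached a mean of 1 CPM, led by Amhr2, Hsd3b1 and Cyp11a1, while Has2, Ptx3, Foxl2 and Fshr were near 0; the summed level was 24.1 to 3636 CPM in control and 12.9 to 308 CPM in SER embryos, and only control replicate 5 was above 308 CPM. The 13 sperm genes summed to 112 to 296 CPM in control and 102 to 394 CPM in SER embryos, mostly Odf2, which other cells also express. The 5 haemoglobin genes were at 0 in all embryos, and the summed level of the 10 blood and macrophage genes was at most 24.6 CPM outside SER replicate 13, which had 152 CPM.

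Each of the 10 genes was detected in nearly every embryo. Of the 310 values, 1 was at 0, that of Spc24 in SER replicate 13, and 13 rested on fewer than 10 counts. To set levels of different genes side by side, they were first divided by the length of the exons. On the scale of log2(CPM per kb of exon + 1), averaged over the 31 embryos, Spc25 was highest (5.93 ± 0.65, SD), followed by Ska1 (5.63 ± 0.93), Ska3 (5.16 ± 0.70), Nuf2 (4.55 ± 0.91), Ndc80 (4.00 ± 1.00), Spc24 (3.92 ± 1.15), Knl1 (3.78 ± 0.47), Bub1 (3.76 ± 0.78), Ska2 (3.26 ± 1.25) and Bub1b (2.63 ± 0.93). As plain means these were 65.6 CPM per kb for Spc25 and 6.51 CPM per kb for Bub1b. Within single embryos Spc25 was the highest of the 10 in 20, Ska1 in 8 and Nuf2 in 3.

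**Figure D1:**
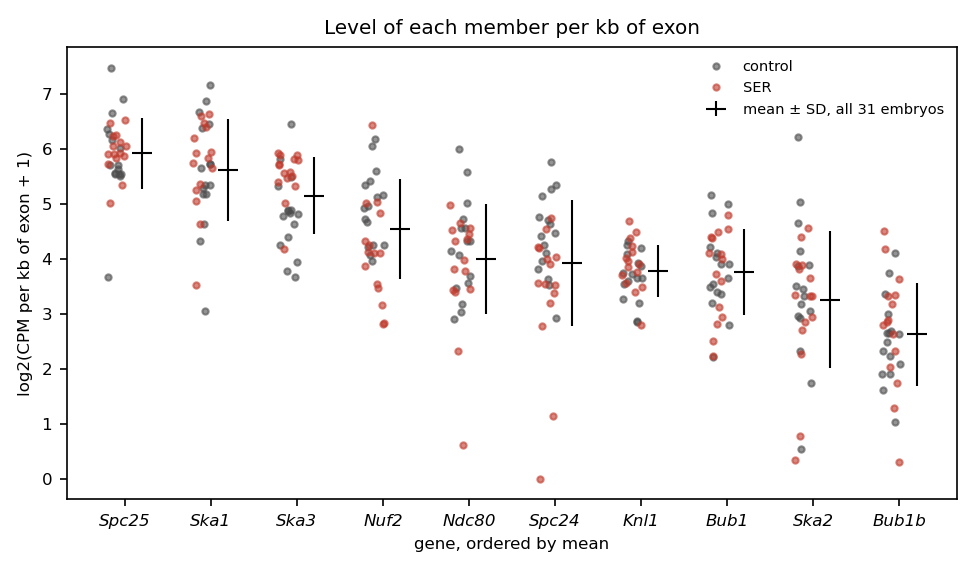
Level of each gene per kb of exon on a log2 scale (y axis), genes ordered by their mean over the 31 embryos (x axis), with points for single embryos (grey control, red SER) and the mean ± SD in black. Spc25 and Ska1 stood at the top and Bub1b at the bottom (means of 5.93, 5.63 and 2.63), and Knl1 had the smallest spread (SD 0.47).

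Neighbours in this order were compared within embryos by 2-sided paired permutation tests (100000 sign flips, 9 pairs, Benjamini-Hochberg adjustment). Spc25 was above Ska1 by 0.30 ± 0.60 (SD, n = 31) and in 23 embryos (adjusted p = 0.028). Ska1 was above Ska3 by 0.47 ± 0.72 and in 25 embryos (adjusted p = 0.0103), and Ska2 above Bub1b by 0.63 ± 1.26 and in 22 embryos (adjusted p = 0.028). These calls depended on the scale and the embryos used. With the longest transcript as length, Spc25 was above Ska1 by 1.04 (adjusted p = 9e-05), and the other 2 of these pairs were not called (adjusted p = 0.112 for Ska1 and Ska3, 0.0572 for Ska2 and Bub1b). Ska1 was above Ska3 and Ska2 above Bub1b within control embryos (by 0.76 and 0.90, adjusted p = 0.00256 and 0.0255), and none of the 3 pairs was called within SER embryos (adjusted p from 0.317 to 0.466). Without the 2 embryos that stood apart the adjusted p of Spc25 and Ska1 was 0.0629, and that of Ska2 and Bub1b was 0.264 without length and 0.0652 with a pseudocount of 0.1. The other 6 neighbours were not called at an adjusted p of 0.05 over all embryos (adjusted p from 0.0544 to 0.91), and Ndc80, Spc24, Knl1 and Bub1 lay closest together. This too depended on the setting. Ska3 was above Nuf2 without the 2 embryos that stood apart (adjusted p = 0.0082) and within SER embryos (0.0147). Spc24 was above Knl1 within control embryos (adjusted p = 0.0026). Without division by length both pairs lay the other way (mean difference -0.59 and -1.60, adjusted p = 0.0414 and 4.5e-05). Part of the counts are 5′ end reads, which do not grow with length. Without division by length the order was Spc25, Nuf2, Ska1, Knl1, Ndc80, Ska3, Bub1, Spc24, Ska2 and Bub1b, so that Spc25 stayed first and Bub1b last, while Nuf2 and Knl1, whose exons are long (6341 and 8542 bases), moved up.

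The subunits of a complex did not keep a fixed ratio. Spc25 was above its partner Spc24 in all 31 embryos, by a median of 1.64 on the log2 count scale in control and 2.82 in SER embryos. Ndc80 was above Nuf2 in 12 of 31 embryos only, and the log2 ratio of Ndc80 to Nuf2 ran from -3.26 to 1.34 in control and from -4.96 to 1.90 in SER embryos. Ska3 was above Ska2 in 29 and Ska1 above Ska2 in 30 of 31. These are ratios of counts and are not corrected for length.

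The groups of embryos were compared over 8571 genes by the quasi-likelihood test of edgeR, p-values being adjusted by the Benjamini-Hochberg method. None of the 10 genes had an adjusted p under 0.1, and neither had any tested gene (0 of 8571, 0%). An unadjusted p under 0.05 was found for 3 of the 10 genes, Spc24, Nuf2 and Ska3, and for 491 of the 8571 (5.73%). The 10 were chosen with these fold changes known, so their count is a description and no test of them. DESeq2 called 49 genes (0.677% of 7241) and none of the 10. limma voom with sample quality weights called 848 genes (9.89%), with Ska3 and Nuf2 among them, and edgeR with 5 surrogate variables called 61 genes (0.712%), with Nuf2 and Spc24 among them. Without the filter on low counts edgeR called 504 genes (2.83%) and none of the 10. The fitted log2 fold changes of SER over control were above 0 for 3 of the 10 and below 0 for 7, with a median of -0.20 beside 0.02 over all tested genes. Of all tested genes 4515 were above 0 and 4056 below. Ska1, Spc25 and Bub1 were below 0 in the fit, although their median CPM was higher in SER than in control embryos. For all 10 the ranges of the groups overlapped, but overlap was not counted over all tested genes, so it is no trait of these 10.

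**Figure D2:**
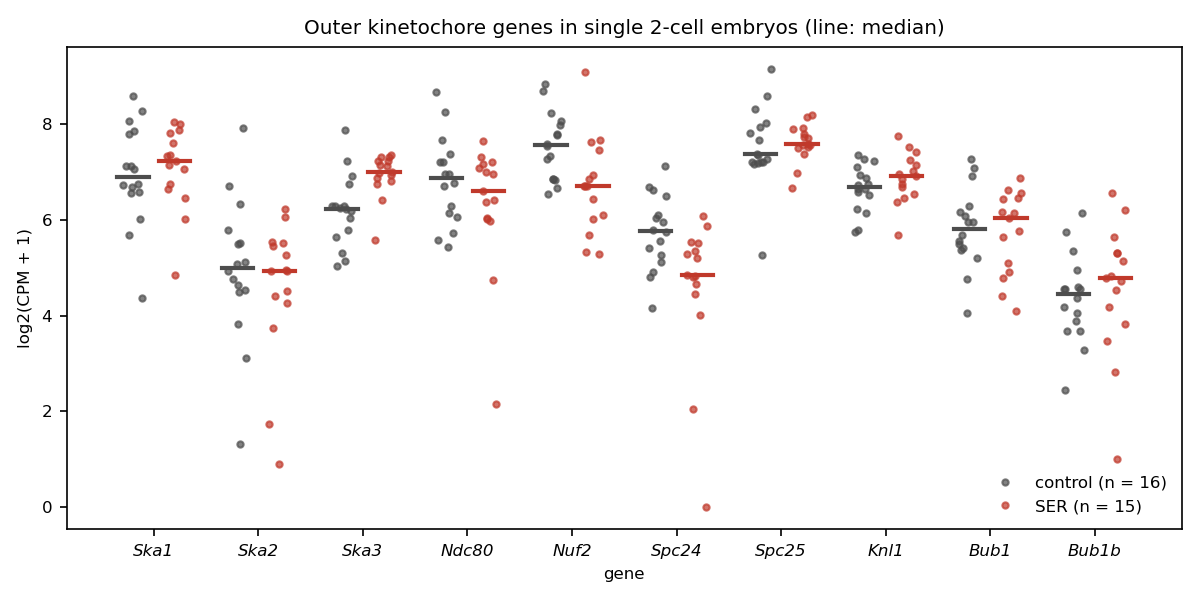
Level of the 10 genes in each embryo as log2(CPM + 1) (y axis), 16 control (grey) and 15 SER (red), the lines being medians. The ranges of the groups overlapped for every gene shown, and overlap was not counted over all tested genes. For Ska3, 14 of 15 SER embryos lay above the control median, and for Spc24 13 of 15 lay below it.

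Ska3, the subunit that carries the contact with the Ndc80 complex, had the highest fitted fold change of the 10. Its level ran from 31.7 to 236 CPM in control embryos (median 74.5) and from 46.7 to 163 CPM in SER embryos (median 127). Thus 14 of 15 SER embryos were above the control median and 14 of 16 control embryos below the SER median, although the highest value of all, control replicate 1, belonged to the control group. The fitted log2 fold change was 0.52 (SE 0.26), 0.50 without the 2 embryos that stood apart, 0.76 without control replicate 1, and 1.20 under limma voom. On the log2 CPM scale the SD over embryos was 0.80 in control and 0.47 in SER embryos, and the coefficient of variation of the CPM 61.2% and 24.6%. The spread did not go one way over the 10 genes. The coefficient of variation was also lower in SER embryos for Ska1, Ska2, Ndc80, Spc25 and Bub1. It was higher for Nuf2 (51.5% in control, 93.1% in SER), Spc24, Knl1 and Bub1b. On the log2 scale the SD was higher in SER embryos for Ndc80 (0.97 and 1.33), Nuf2, Spc24, Knl1 and Bub1b. With the groups pooled, Ska3 was also the member whose level went most with the library total (Pearson's r = 0.50, Spearman's rho = 0.50, n = 31, permutation p = 0.00403 and 0.00465, adjusted 0.0151 and 0.0174 over 30 relations). Ska3 and the library total were both higher in the SER group, and the set was chosen with the fold change of Ska3 known. The pooled r and its p-values therefore include the difference between the groups and are a description. The r of Ska3 was 0.56 without the 2 embryos with totals farthest from the median, 0.61 within control and 0.11 within SER embryos. Within single groups Ska3 did not have the highest r. Ska1 had it in control embryos (0.81) and Nuf2 in SER embryos (0.35), and no test was made within a group. With the library total as a covariate the log2 fold change of Ska3 was 0.38, and with every library thinned to 532945 counts it was 0.53.

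Ska1, the subunit with the microtubule-binding domain, ranged from 19.6 to 384 CPM in control (median 120) and from 28.0 to 265 CPM in SER embryos (median 150). Both minima belonged to the embryos that stood apart. The fitted log2 fold change was -0.06 (SE 0.32) and the medians pointed the other way, so that no direction can be given. It ran from -0.15 to 0.14 when 1 embryo was left out, and was 0.59 under limma voom. Ska2, which pairs with Ska1 in the core of the complex, had 1.51 to 243 CPM in control (median 31.2) and 0.87 to 74.5 CPM in SER embryos (median 29.6). Its log2 fold change of -0.75 (SE 0.49) rested largely on control replicate 3, the embryo with 243 CPM, without which it was -0.23. Ska2 shares 329 of its 3272 exon bases with the antisense gene Gm11491, and Ska3 shares 78 of its 2705 with Sap18 on the opposite strand, and since the strand setting of the counting is not given in the sources used here, reads there could belong to either. Within embryos, the log2 count ratio of Ska3 to Ska1 was -0.70 in the median control and -0.25 in the median SER embryo, with 13 of 15 SER embryos above the control median.

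**Figure D3:**
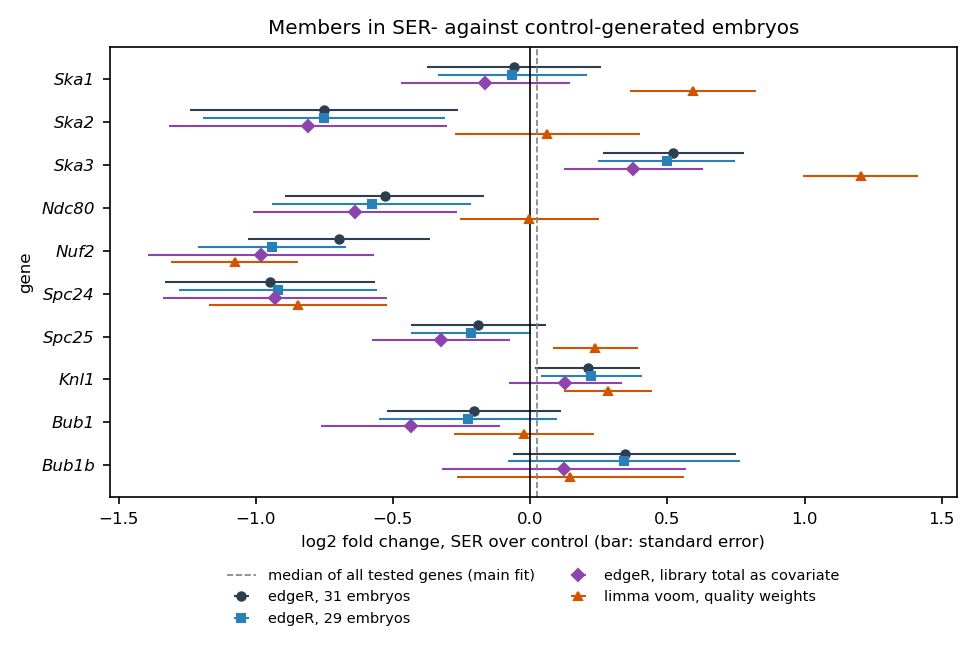
Log2 fold change of SER over control (x axis, bars are standard errors) for each gene (y axis) under 4 fits: edgeR with all 31 embryos, edgeR without the 2 embryos that stood apart, edgeR with the library total as a covariate, and limma voom with sample quality weights. Ska3 (0.52 with all embryos), Nuf2 (-0.70) and Spc24 (-0.95) kept their side of 0 in all 4, while Ska1, Ska2 and Spc25 were below 0 in the edgeR fits and above it under limma voom.

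Spc24 had the most negative fold change of the 10. Its level ran from 16.9 to 139 CPM in control embryos (median 53.7) and from 0 to 66.4 CPM in SER embryos (median 27.8), and 13 of 15 SER embryos were below the control median. The embryo at 0, SER replicate 13, had 2300140 counts, for which 3 counts would be 1.30 CPM. The log2 fold change was -0.95 (SE 0.38), -0.85 without SER replicate 13, and between -0.82 and -1.06 over all fits that left out 1 embryo. Spc25, its partner, had 37.7 to 570 CPM in control (median 165) and 101 to 294 CPM in SER embryos (median 191). Of the SER embryos 13 of 15 were above the control median, and 9 of 16 control embryos were below the SER median. The fitted log2 fold change of Spc25 pointed the other way, at -0.19 (SE 0.25), so that no direction can be given. It was 0.24 under limma voom and 0.02 without control replicate 1. The coefficient of variation of Spc25 was 57.6% in control and 25.4% in SER embryos, and its highest and lowest values were both in control embryos (replicates 1 and 4).

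Nuf2 ran from 92.6 to 456 CPM in control embryos (median 189) and from 38.4 to 544 CPM in SER embryos (median 103). Of the SER embryos 12 of 15 were below the control median, yet the highest value of all was that of SER replicate 15, and control replicate 4 was highest of its group. The log2 fold change of -0.70 (SE 0.33) was larger in size without these 2 embryos, at -0.94, and was -1.09 without SER replicate 15 alone. Ndc80 had 42.5 to 409 CPM in control (median 116) and 3.48 to 199 CPM in SER embryos (median 96.3). Its log2 fold change was -0.53 (SE 0.36), -0.28 without control replicate 1 and 0.00 under limma voom.

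Over all 31 embryos Knl1 had the smallest coefficient of variation of the 10 (33.7%), although Ska3 and Spc25 had smaller ones within the SER group. It had 53.1 to 162 CPM in control (median 102) and 50.6 to 214 CPM in SER embryos (median 120) and a log2 fold change of 0.21 (SE 0.19). Bub1 had 15.7 to 153 CPM in control (median 55.9) and 16.04 to 117 CPM in SER embryos (median 65.4), with a log2 fold change of -0.20 (SE 0.32) that ran from -0.31 (without SER replicate 13) to -0.03 (without control replicate 3) when 1 embryo was left out. Bub1b was the scarcest, with 4.47 to 69.6 CPM in control (median 21.02) and 1.01 to 93.8 CPM in SER embryos (median 26.5), and a log2 fold change of 0.34 (SE 0.41), or 0.13 without SER replicate 2. The lowest Bub1b value was 1 count in SER replicate 11. For none of these 3 genes did the difference between the groups exceed the spread between embryos.

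Ranges over single embryos were wider than the differences between the groups. SER replicate 13 was lowest of all embryos in Ska2 (2 counts, 0.87 CPM), Ndc80 (8 counts, 3.48 CPM) and Spc24 (0 counts), while its Ska3 (149 CPM), Spc25 (190 CPM) and Bub1 (117 CPM, the highest of its group) lay within or at the top of the SER range; this embryo was picked out after its values were seen. It is also the embryo with 152 CPM of blood and macrophage genes, and the part of those in its low values was not tested. Control replicate 4, the lowest in zygotic genes, was lowest of its group in Ska1, Ska2, Ska3 and Spc25 (19.6, 1.51, 31.7 and 37.7 CPM) and highest in Nuf2 (456 CPM). SER replicate 15 was likewise lowest of its group in Ska1, Spc25 and Knl1 (28.0, 101 and 50.6 CPM), second lowest in Ska2, Ska3 and Spc24, and highest in Nuf2 (544 CPM).

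The same division was seen over all embryos when each gene was set against the summed level of the zygotic genes and of the oocyte genes on the log2 scale. These relations were chosen after the data had been seen, and both sides of each are CPM of the same library. The permutations here and for the library total shuffled all 31 embryos, whose batches in the study are not given in the labels. Variation shared by the embryos of a batch can therefore not be told apart from these relations. Ska1 went with the zygotic genes (Pearson's r = 0.85, Spearman's rho = 0.78, n = 31, permutation p = 1e-05 for both, the smallest that 100000 resamples can give; adjusted 0.0001 and 7.5e-05 over 30 relations). Its r was 0.78 without the 2 embryos that stood apart, 0.87 within control and 0.83 within SER embryos. Spc25 gave r = 0.82 and rho = 0.76 (permutation p = 1e-05 for both, adjusted 0.0001 and 7.5e-05), and r = 0.76 without the 2 embryos, 0.89 within control and 0.76 within SER embryos. Ska2 gave r = 0.71 and rho = 0.63 (permutation p = 4e-05 and 0.00018, adjusted 0.0003 and 0.00108), and Ska3 r = 0.61 and rho = 0.76 (permutation p = 0.00013 and 1e-05, adjusted 0.00078 and 7.5e-05). Without the 2 embryos these were r = 0.55 for Ska2 and 0.78 for Ska3. Within control and SER embryos r was 0.83 and 0.61 for Ska2, and 0.71 and 0.51 for Ska3. Of the 8571 tested genes, 2.77% had an r with the zygotic genes as high as that of Ska1, 4.06% as high as that of Spc25, 9.88% as high as that of Ska2 and 15.3% as high as that of Ska3.

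Nuf2 went with the oocyte genes instead (r = 0.90, rho = 0.86, permutation p = 1e-05 for both, adjusted 0.0001 and 7.5e-05). Its r was 0.89 without the 2 embryos farthest from the median of the oocyte genes, 0.88 within control and 0.90 within SER embryos, and only 0.0583% of the tested genes had an r as high. Its opposite relation to the zygotic genes (r = -0.53, rho = -0.40, permutation p = 0.00174 and 0.0279, adjusted 0.0087 and 0.0929) rested on the 2 embryos that stood apart, without which r was -0.18. Knl1 likewise had r = 0.45 with the zygotic genes (permutation p = 0.0118, adjusted 0.0393) and 0.05 without those 2, with rho = 0.24 (permutation p = 0.187, adjusted 0.312). For Ndc80 the measures differed, with rho = 0.57 (permutation p = 0.00115, adjusted 0.00575) and r = 0.29 (permutation p = 0.109, adjusted 0.234), and r was 0.66 within control and 0.02 within SER embryos. Ska1 was lower where the oocyte genes were higher (r = -0.53, rho = -0.54, permutation p = 0.00209 and 0.0023, adjusted 0.00896 and 0.00986), with r = -0.86 within SER and -0.30 within control embryos. Spc24, Bub1 and Bub1b had no relation to either list past an adjusted p of 0.05.

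**Figure D4:**
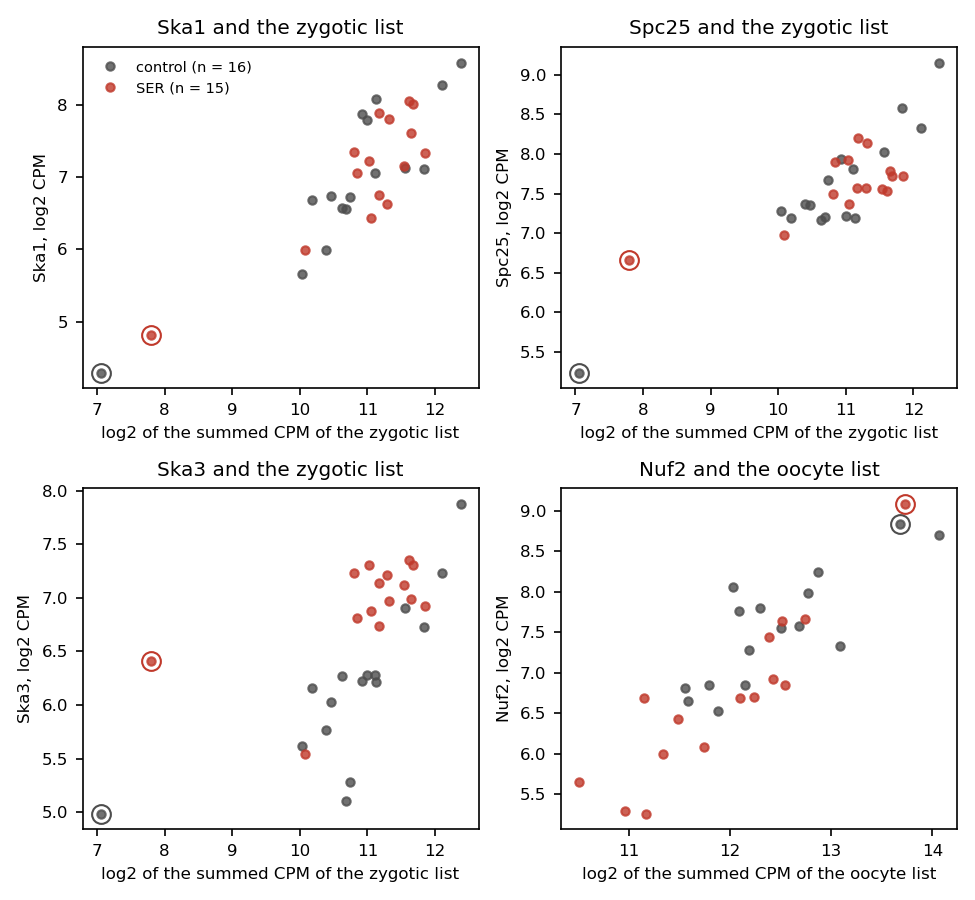
Log2 CPM of Ska1, Spc25 and Ska3 (y axes) against the log2 summed CPM of the zygotic genes, and of Nuf2 against that of the oocyte genes (x axes), 1 point per embryo (grey control, red SER), with rings on control replicate 4 and SER replicate 15. Ska1 and Spc25 lie along a rising line that includes the ringed embryos (r = 0.85 and 0.82), and Nuf2 is highest in the embryos with most oocyte RNA (r = 0.90). The points are plain log2 CPM, while each r was taken from log2 CPM of the gene with TMM scaling and a prior count of 2.

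Pairs of members were compared after the group means had been removed, as a description over 31 embryos. Within an embryo both genes of a pair come from the same library and share its depth. Of the 45 pairs, 8 had r over 0.5 (17.8%, against 7.89% of all pairs of tested genes), and the median r was 0.18 (0.01 over all pairs). Of these 8, 6 joined Ska1, Ska2, Ska3 and Spc25 to each other, from 0.77 for Ska1 with Spc25 to 0.53 for Ska2 with Ska3. Without the 2 embryos that stood apart 7 pairs were over 0.5, Ska1 with Spc25 being at 0.65 and Ska2 with Ska3 at 0.47. The other 2 joined Ndc80 to Ska2 (0.67) and to Bub1b (0.55). Spc25 thus varied with the Ska genes and hardly with Spc24 (0.08), and Ndc80 did not vary with Nuf2 (-0.18). The lowest r was that of Ska1 with Nuf2, -0.61, or -0.39 without the 2 embryos that stood apart.

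**Figure D5:**
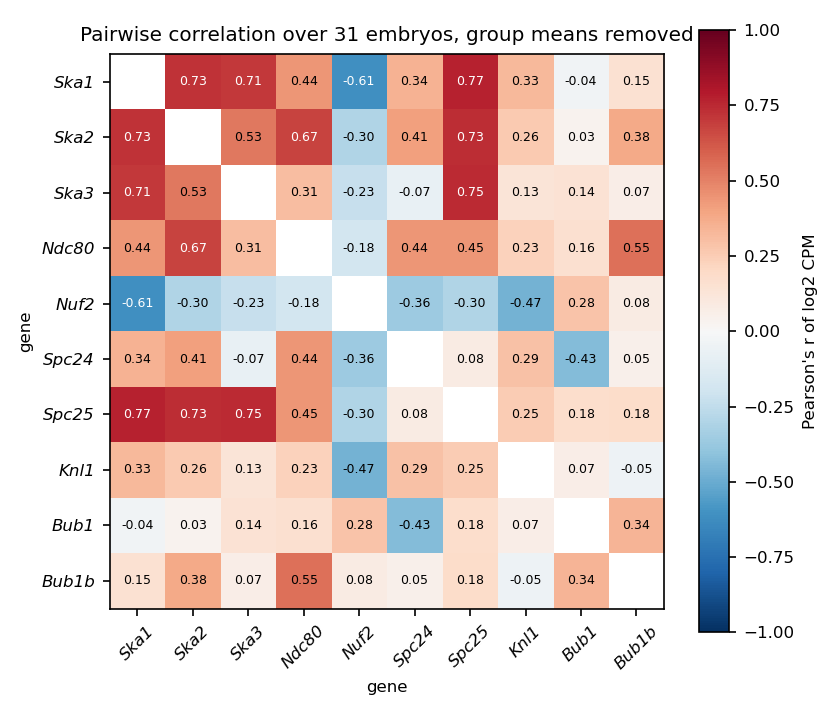
Pearson's r of log2 CPM for each pair of the 10 genes (both axes) over 31 embryos after removal of the group means, red above and blue below 0. The block of Ska1, Ska2 and Ska3 and the row of Spc25 hold the 6 pairs from 0.53 to 0.77, and the row of Nuf2 is below 0 for 7 of its 9 partners, or for 5 without the 2 embryos that stood apart.

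The genes whose levels were most like that of Ska3 over the 31 embryos, by Pearson's r after removal of the group means, were Eif4e (0.86), Cript (0.80), Hnrnpa1 (0.78), Nmd3 (0.77) and Atf1 (0.77). Eif4e encodes the cap-binding translation initiation factor, Hnrnpa1 an RNA-binding protein, Nmd3 an export adaptor of the large ribosomal subunit and Atf1 a transcription factor. Eif4e and Hnrnpa1 have processed copies elsewhere in the genome that could share their reads. Their log2 fold changes of SER over control were from -0.36 to 0.22, beside 0.52 for Ska3. Among the other members, Spc25 ranked 9 of 8570 genes in likeness to Ska3, Ska1 31, Ska2 495 and Ndc80 1874, and Nuf2 ranked 5881.

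The other kinetochore genes were taken from 5 lists of 58 genes, of which 57 passed the filter and none had an adjusted p under 0.1 (background 0%). The fitted log2 fold change of SER over control was above 0 for 25 and below 0 for 32, with a median of -0.04, beside 0.02 over all tested genes. The list of the Mis12 complex, which carries the Ndc80 complex, and Zwint, 5 genes together, had a median of -0.01. Dsn1 was at 191 ± 42.0 CPM in control (SD, n = 16) and 237 ± 118 CPM in SER embryos (SD, n = 15), and Pmf1 at 140 ± 79.4 and 112 ± 70.9 CPM. Of the 20 tested genes of the inner kinetochore, which binds the centromere throughout the cell cycle, 16 were below 0 (median -0.28). Cenpx had the smallest p of the 57, with 192 ± 145 CPM in control and 108 ± 41.4 CPM in SER embryos and a log2 fold change of -0.92 (SE 0.30, edgeR adjusted p = 0.465). Cenpw, its relative in the same DNA-binding subcomplex, was at 58.0 ± 50.8 and 39.0 ± 19.3 CPM, and Cenpn, the gene of this list with the highest CPM, at 478 ± 244 and 461 ± 351 CPM.

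Of the 11 spindle checkpoint genes 8 were above 0 (median 0.19). Ttk, the kinase that starts checkpoint signalling at Knl1, was at 144 ± 73.9 CPM in control and 211 ± 241 CPM in SER embryos, Zwilch at 20.0 ± 11.8 and 29.2 ± 15.4 CPM, and Mad2l1bp, which helps to switch the checkpoint off, at 646 ± 340 and 647 ± 361 CPM. The log2 fold change of Ttk, 0.54, was 0.02 without SER replicate 15. Among the 7 genes of the chromosomal passenger complex and the shugoshins (median -0.01), Birc5 was at 586 ± 272 and 452 ± 135 CPM, the kinase gene Aurkb at 63.1 ± 36.2 and 94.0 ± 42.9 CPM, and Cdca8 at 609 ± 220 and 650 ± 111 CPM. Among the 14 partners at the microtubule (median 0.06), Clasp2 was at 45.6 ± 17.2 and 64.3 ± 20.1 CPM, Ckap2 at 117 ± 96.8 and 84.0 ± 45.6 CPM, and Cenpf at 580 ± 237 and 493 ± 215 CPM. Leaving out control replicate 3 moved the log2 fold change of Birc5 from -0.44 to -0.26, of Cenpx from -0.92 to -0.60 and of Cenpw from -0.70 to -0.37, leaving out control replicate 1 moved Ckap2 from -0.56 to -0.25, leaving out control replicate 12 moved Pmf1 from -0.36 to -0.23, and leaving out SER replicate 15 moved Dsn1 from 0.29 to 0.11. In none of these lists did a gene differ between control- and SER-generated embryos past the threshold of the edgeR test, and the smallest adjusted p of each list was between 0.465 and 0.935.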

How the data were processed

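Single 2-cell embryos (16 control- and 15 SER-generated) were profiled by Smart-seq3. The deposited values are whole-number counts per gene symbol without normalization. The authors made them with featureCounts from STAR alignments, after UMI-tools (5′ reads) and Picard (internal reads) had taken out duplicates. The submitters' processing notes name mm10 and no versions. The study describes 3 batches, corrected with ComBat-seq before DESeq2, and batches are not named for single embryos in the labels, so no batch term was used. No other per-sample column was left out.

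The members and gene lists were chosen with earlier results of these data known. Counts were compared in R 4.3.3 with edgeR 4.0.16 (TMM, filterByExpr at min.count 10 and min.total.count 15, quasi-likelihood test, Benjamini-Hochberg adjustment, threshold 0.1), on all 31 embryos. The standard error is the log2 fold change divided by the square root of F. The script was tested on simulated data. Alternatives were DESeq2 1.42.0 and its size factors, limma 3.58.1 voom with sample quality weights, sva 3.50.0 with 5 surrogate variables, no filter, a stricter filter, thinned counts, the library total as covariate, a replicate block, each embryo left out, and, added after seeing the data, the 2 embryos lowest in zygotic genes left out. Likeness, pairs, the SD on the log2 CPM scale and the relations to the gene lists and the library total used log2 CPM with TMM scaling and a prior count of 2. The summed levels of the lists were plain CPM. Levels per kb used a pseudocount of 1, and ratios within embryos 0.5 added counts. Exon lengths came from GENCODE vM21 (20013 of 20544 symbols), and promoters from RefSeq. Named genes were all members, and of each list the 2 with the smallest p, the most abundant and any called. No statement in the labels ties embryos to separate parents, so p-values measure the spread between these embryos, and depth (532945 to 3088396 counts) sets the precision of low values, internal reads having no molecular identifier.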

Additional observations from a re-analysis of the deposited data

How the results depend on the processing

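Ska3 and Bub1b stayed above 0 and Nuf2, Spc24 and Ndc80 below 0 in all 41 alternatives to the main fit, as did Knl1 above 0. Ska1 changed side in 6 of 41 (up to 0.59), Spc25 in 2 (up to 0.24), Ska2 in 1 (0.06, limma voom) and Bub1 in 1 (0.01, surrogate variables). The count of genes past an adjusted p of 0.1 was 0, as it was at 0.05, and it was 0 with DESeq2's size factors, the stricter filter (at least 10 counts in at least 15 embryos), thinned counts, the library total as a covariate, without the 2 embryos that stood apart, and in each of the 31 fits that left out 1 embryo. It was 49 with DESeq2, 848 with limma voom, 504 without the filter (17803 genes tested, none of the members among the calls) and 61 with surrogate variables. Members called were 2 with limma voom (Ska3 at 1.20 and Nuf2 at -1.08), beside 9.89% of all tested genes. With surrogate variables they were 2 (Spc24 at -1.43 and Nuf2 at -0.70), beside 0.712%. The members were chosen with their fold changes known, so these calls are a description. limma voom also called 1 of 20 tested genes of the inner kinetochore, 2 of 11 of the spindle checkpoint, 1 of 7 of the chromosomal passenger list and 5 of 14 microtubule partners. These counts stand beside the same 9.89% of all tested genes, and no test of the lists was made. The cause of these differences between tools was not tested. Among the named genes, Cenpw was at 0.026 with limma voom, Ttk at -0.012 with DESeq2 and -0.051 with limma voom, Mad2l1bp at 0.34 with limma voom, and Cdca8 at -0.038 with the library total as a covariate, each on the other side of 0 from the main fit. Leaving out 1 embryo gave ranges of -0.304 to 0.066 for Cenpn, -0.20 to 0.10 for Mad2l1bp and -9.3e-05 to 0.13 for Cdca8. The number of neighbouring pairs of levels that differed, 3 in the main order, was, each time in the order that the setting itself gave, 1 with the longest transcript as length, 1 without length, 0 in control embryos only and 1 in SER embryos only. Control and SER embryos share replicate numbers, which nothing in the labels ties to a day or an animal. The correlation of same-numbered embryos ran from -0.368 to 0.494, with 8 of 15 over 0.1, and 2 SER embryos correlated best with their own number. With the replicate number as a block 0 genes were called, and Ska3 was at 0.72, Nuf2 at -0.89 and Spc24 at -1.01. Bub1b, Ska2 and Spc24 reached the lowest counts (1, 1 and 0), and such low counts are the least precise. The 0 of Spc24 was in SER replicate 13, which had 2300140 counts, and the cause of these low counts was not tested.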

Other observations

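The levels of the other kinetochore genes were set against the zygotic and the oocyte genes in the same way. Counting a Pearson's r over 0.5 across the 31 embryos, as a description with no test, 4 of the 10 members went with the zygotic genes and 1 with the oocyte genes. In the inner kinetochore list these were 6 and 3 of 20 genes, in the spindle checkpoint list 4 and 1 of 11, in the chromosomal passenger and shugoshin list 3 and 1 of 7, and in the list of microtubule partners 4 and 1 of 14. Of the 5 genes of the Mis12 complex and Zwint, 0 went with the zygotic and 1 with the oocyte genes, with a median r of -0.29 and 0.43. Over all 8571 tested genes, 21.6% passed that value with the zygotic and 11.5% with the oocyte genes.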
